A study of Rattus norvegicus with 6 samples.

Results

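The genes described here are the chemokines, chemokine receptors and lymphotoxins that organise lymphoid tissue, measured in rat lung after inhalation of silica dust. The members are 10 genes (Ccl19, Ccl21, Ccl20, Cxcl12, Cxcl13, Ccr7, Cxcr4, Cxcr5, Lta and Ltb), and every probe set annotated to 1 of them alone was taken. This gave 14 probe sets for 9 genes, out of 14217 named genes on the array. No probe set of the annotation used here carried Ccr7, which is not analysed here. Lung RNA came from Lewis rats, an inbred strain, with 3 animals in each group and 1 array per animal. Exposure of the silica animals lasted 6 weeks, with 5 days per week of 6 hours each in an aerosol of silica particles at 6.2 mg/m3. Control animals breathed filtered air in the same kind of chamber. The sources used here give neither the animals' age and sex nor the interval from the last exposure to tissue collection. Whole lung tissue was homogenised, so a difference in signal cannot separate fewer or more cells of a type from less or more RNA per cell.

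Lymphoid tissue is laid out by a small set of chemokines. Stromal and follicular cells secrete CXCL13, which draws B cells and follicular helper T cells through the receptor CXCR5. CCL19 and CCL21 share the receptor CCR7 and draw T cells and dendritic cells into T cell zones. CCL20 attracts cells that carry CCR6, and CXCL12 acts through CXCR4 on many leukocytes and their precursors. Lymphotoxin alpha and beta, made by lymphocytes and lymphoid tissue inducer cells, form a membrane complex that signals through the lymphotoxin beta receptor and non-canonical NF-kB to stromal cells, which then secrete these chemokines. In the lung, clusters of B and T cells beside airways and vessels, known as bronchus-associated lymphoid tissue, depend on the same factors.

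Signals are linear, as the authors deposited them, and are quoted in array units. Differences are log2 fold changes, silica minus control, of signal + 16, and this constant makes the change of dim probe sets look smaller. They were tested with limma and adjusted by the Benjamini-Hochberg method over 31042 probe sets, with an adjusted p under 0.05 as the threshold. The number of arrays limits the precision, and no exact permutation test of 3 arrays against 3 can give a p under 0.1. Array medians lay between 7.38 and 7.42 on the log2 scale. Lung epithelial markers were bright in every array, with a summed signal over 8 genes between 114913 and 138087. RNA quality, read as the mean log2 ratio of 3-prime to 5-prime signal of beta-actin and GAPDH, lay between 1.00 and 1.23 in control arrays and between 1.15 and 1.67 in silica arrays. Polyadenylated spike-in controls averaged 8.90 and 9.24 on the log2 scale in silica replicates 1 and 3, and between 9.996 and 10.5 on the other arrays. Their part in the results was not tested beyond the settings named below.

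The lung of silica animals had higher mean signals of Cxcl13, Ccl19 and Ltb than the lung of control animals, while Ccl21, Ccl20, Cxcr4 and Cxcr5 overlapped between the groups. By signal means, Cxcl13 was 3.05 times, Ccl19 2.33 times and Ltb 1.69 times the control level. None of the 14 probe sets passed the adjusted threshold in limma, against 1.08% of all probe sets, and 5 had an unadjusted p under 0.05, against 17.3% of all probe sets. Each of these 5 was higher in silica, where 9.35% of all probe sets had such a p in that direction. The same 5 probe sets (Cxcl13, Ccl19, Ltb, Lta and a further Cxcl12 probe set) had every silica array above every control array, against 13.3% of all probe sets, and 0 had every silica array below, against 12.2%. Of the 9 brightest probe sets, 1 per gene, 4 were separated upward, against 18.7% of genes. The median log2 fold change over the 14 probe sets was 0.19, and over all 31042 it was 0.00.

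**Figure D1:**
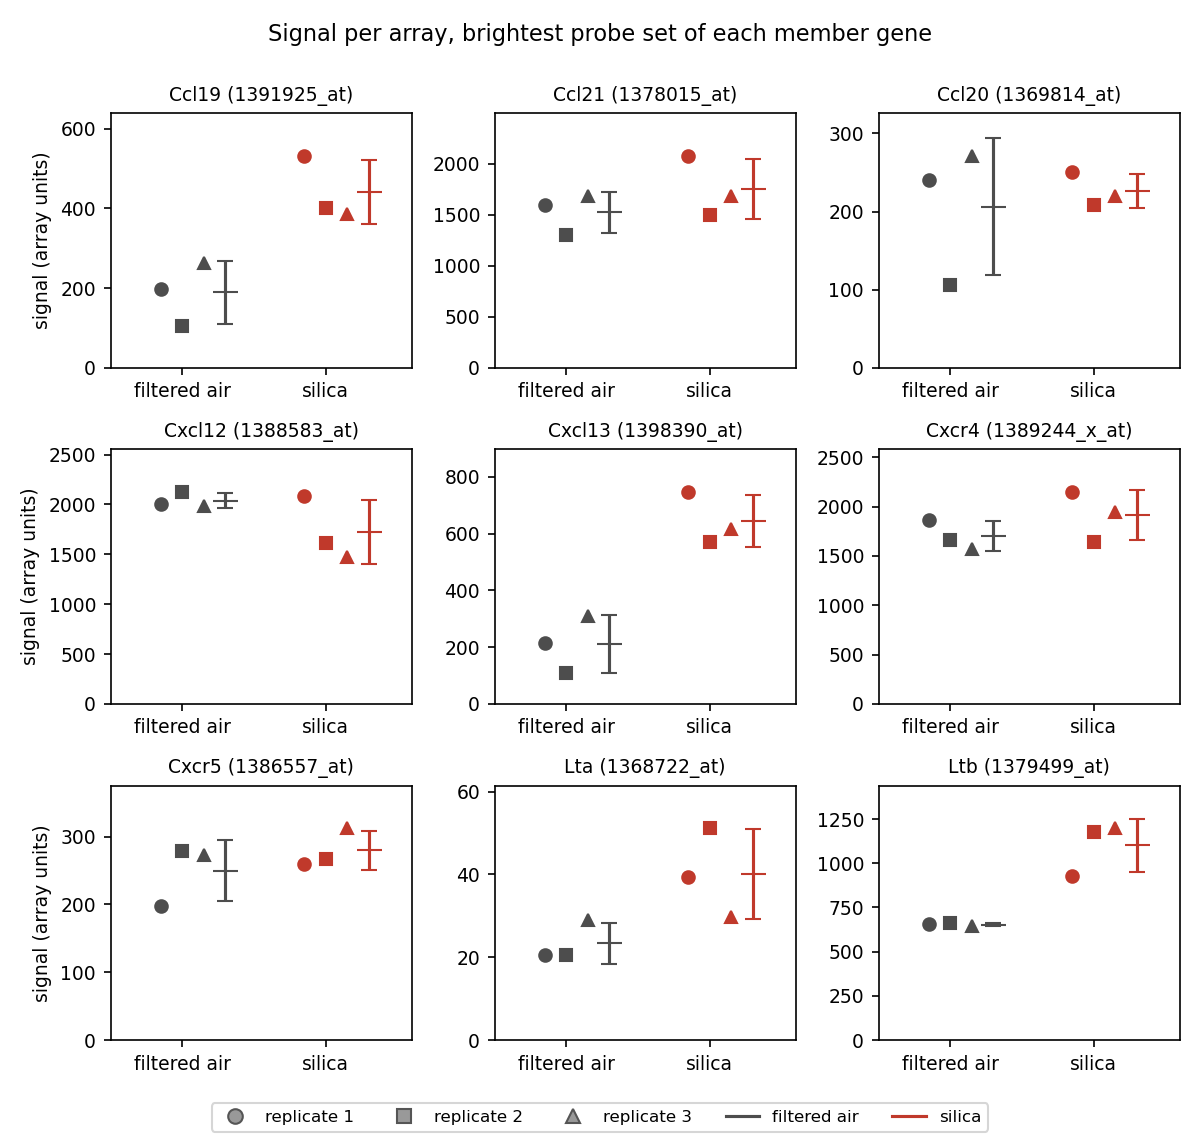
Signal in array units (vertical axes start at 0) of the brightest probe set of each of 9 member genes, with 1 point per array, marked by replicate number, and the group mean ± SD (n = 3) at its right. Cxcl13, Ccl19, Lta and Ltb show all silica points above all control points, and the other 5 genes show overlapping groups.

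The promoters of the 3 members with the largest mean differences in this comparison are shown because the chemokines and lymphotoxins are known targets of NF-kB. Promoter windows of 250 bases before to 50 bases after the start of transcription were taken from RefSeq on rat assembly GRCr8, which held 8 of the 10 members (all but Ccr7 and Cxcr5). The array values carry no genome build of their own. Each window was searched on both strands for the kappaB consensus, for TATAAA, and for GGGAGATTT, the first letters of the kappaB-type element described in the mouse Cxcl13 promoter as a site for RelB and p52. The last motif was chosen after the sequences had been seen. Capitals mark the matches. The windows lie at chr14:13917871-13918170 (Cxcl13), chr5:61761115-61761414 (Ccl19) and chr20:3634005-3634304 (Ltb), all on the minus strand, and read 5′ to 3′ along the gene.
Cxcl13: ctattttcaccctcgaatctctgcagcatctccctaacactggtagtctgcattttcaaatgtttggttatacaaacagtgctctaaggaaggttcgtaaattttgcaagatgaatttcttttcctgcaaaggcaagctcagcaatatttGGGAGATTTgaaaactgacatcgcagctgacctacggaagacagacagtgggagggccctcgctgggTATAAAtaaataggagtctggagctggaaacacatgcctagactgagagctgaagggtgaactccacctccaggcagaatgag
Ccl19: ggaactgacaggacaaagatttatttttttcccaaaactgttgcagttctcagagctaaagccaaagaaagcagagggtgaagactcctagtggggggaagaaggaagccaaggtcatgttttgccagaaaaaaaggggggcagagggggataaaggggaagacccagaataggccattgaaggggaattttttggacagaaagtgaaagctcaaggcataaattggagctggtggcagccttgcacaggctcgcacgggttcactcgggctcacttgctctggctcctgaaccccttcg
Ltb: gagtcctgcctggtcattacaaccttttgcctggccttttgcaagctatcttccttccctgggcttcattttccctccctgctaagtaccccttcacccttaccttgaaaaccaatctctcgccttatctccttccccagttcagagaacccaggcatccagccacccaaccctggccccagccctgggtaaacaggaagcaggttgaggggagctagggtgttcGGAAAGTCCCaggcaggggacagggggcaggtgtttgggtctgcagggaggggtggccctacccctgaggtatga

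In the Cxcl13 window the letters GGGAGATTT stood from base -100 to -92 before the start and TATAAA from -33 to -28. The Ltb window held a kappaB consensus match on the opposite strand, from -25 to -16, and the Ccl19 window held none of the 3 motifs. Matches to the kappaB consensus were also present in the windows of Ccl20 (-89 to -80) and Lta (-93 to -84), so 3 of 8 members had one, against 4.18% of 33469 windows of the same length. The letters GGGAGATTT occurred in 0.335% of those windows and in 1 member. TATAAA occurred in 14.2% of windows and in 3 members, Cxcl13, Cxcr4 and Lta. None of the motifs overlapped another in the windows of Cxcl13, Ltb, Lta and Ccl20. A match describes letters and is not evidence that a factor binds there.

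Cxcl13, the B cell attractant of follicles, had the largest difference among the members. Its probe set 1398390_at read 215.8, 107.2 and 310.8 in control replicates 1, 2 and 3, and 747.4, 570 and 618.1 in silica replicates 1, 2 and 3. The lowest silica animal lay well above the highest control animal, while the control animals spread as widely as the silica animals on the linear scale (SD 102 and 91.7). The group means were 211 ± 102 and 645 ± 91.7 (SD, n = 3), and the log2 fold change was 1.64 ± 0.35 (SE; 95% interval 0.78 to 2.50). Its unadjusted p was 0.00330 and its limma adjusted p 0.104. Among all probe sets this log2 fold change lay at percentile 99.8. Control replicate 2 was the lowest array, and without it the log2 fold change was 1.26. The highest value with 1 array left out was 1.96, without control replicate 3.

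Ccl19, a ligand of CCR7, showed the same arrangement of arrays. The signals of 1391925_at were 198.5, 105.8 and 263 in control replicates 1, 2 and 3, and 532.2, 401 and 386.9 in the silica replicates. All silica animals were above all control animals, with control replicate 2 again the lowest and silica replicate 1 again the highest. Means were 189 ± 79.0 in control and 440.03 ± 80.1 in silica, which gave a log2 fold change of 1.22 ± 0.32 (95% interval 0.45 to 1.99; limma adjusted p = 0.147, unadjusted p = 0.00804). Leaving out control replicate 2 brought the log2 fold change to 0.88, and leaving out control replicate 3 to 1.48.

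Ccl21, the second ligand of CCR7, is encoded close to Ccl19 on rat chromosome 5, and differed little between the groups. Its probe set 1378015_at gave 1591.8, 1297 and 1683.6 in control and 2078, 1493.4 and 1684.5 in silica, so silica replicate 2 lay among the controls, silica replicate 3 lay above the highest of them by under 1 array unit, and silica replicate 1 stood well above. The log2 fold change was 0.19 ± 0.17, with a 95% interval from -0.21 to 0.60 (limma adjusted p = 0.599). Taken array by array, the log2 difference between Ccl19 and Ccl21 was -2.98 ± 0.42 (SD, n = 3) in control and -1.96 ± 0.11 in silica. This change of 1.03 separated the groups, with an exact two-sided permutation p of 0.1, the smallest that 3 against 3 can give (0.267 after Benjamini-Hochberg adjustment over 8 such pairs of probe sets, which were chosen after their values were seen).

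Ccl20, which attracts CCR6-bearing lymphocytes and dendritic cells, overlapped between the groups. Control replicates 1, 2 and 3 read 240.2, 106.2 and 271.5 on 1369814_at, and the silica replicates read 251.1, 208.6 and 220.3. Control replicate 2 was the one low array, and the silica animals lay between it and control replicate 3. The log2 fold change of 0.22 ± 0.33 had a 95% interval from -0.58 to 1.02 (limma adjusted p = 0.773), and without control replicate 2 its sign turned, to -0.17.

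Cxcl12, a stromal chemokine made constitutively in lung, was read by 3 probe sets, and none of them passed. The brightest, 1388583_at, gave 1999.9, 2125.5 and 1986.5 in control and 2088.9, 1614 and 1472.1 in silica. Silica replicates 2 and 3 were below all controls and silica replicate 1 was among them, for a log2 fold change of -0.25 ± 0.15 (95% interval -0.62 to 0.11; limma adjusted p = 0.440). The second, 1369633_at, gave 1401.8, 1054.8 and 1639.9 in control and 1797.3, 1892.8 and 1759.5 in silica. Here each silica animal was above each control animal, and the log2 fold change was 0.43 ± 0.17 (95% interval 0.0094 to 0.85; limma adjusted p = 0.281). With single arrays left out it ran from 0.26, without control replicate 2, to 0.57, without control replicate 3. That of the brightest ran from -0.40, without silica replicate 1, to -0.15, without silica replicate 3. The dimmest, 1387655_at, ran from 161.4 to 306.2 in control and from 93.7 to 223.3 in silica, with overlap and a log2 fold change of -0.42 ± 0.35.

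The difference between the 2 brighter Cxcl12 probe sets could be read within each array. It was -0.59 ± 0.37 on the log2 scale in control (second minus brightest) and 0.09 ± 0.26 in silica, and the change of 0.68 separated the groups (exact two-sided permutation p = 0.1, the smallest possible; 0.267 adjusted over 8 pairs). This pair was chosen after its values were seen, and a design of this size cannot show whether the probe sets changed unequally. Taken within arrays, the log2 difference between Cxcl13 and Cxcl12 changed by 1.90 against the brightest Cxcl12 probe set (exact two-sided permutation p = 0.1; 0.267 adjusted). Against the second and the dimmest it changed by 1.21 and 2.06, values that were not tested.

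**Figure D2:**
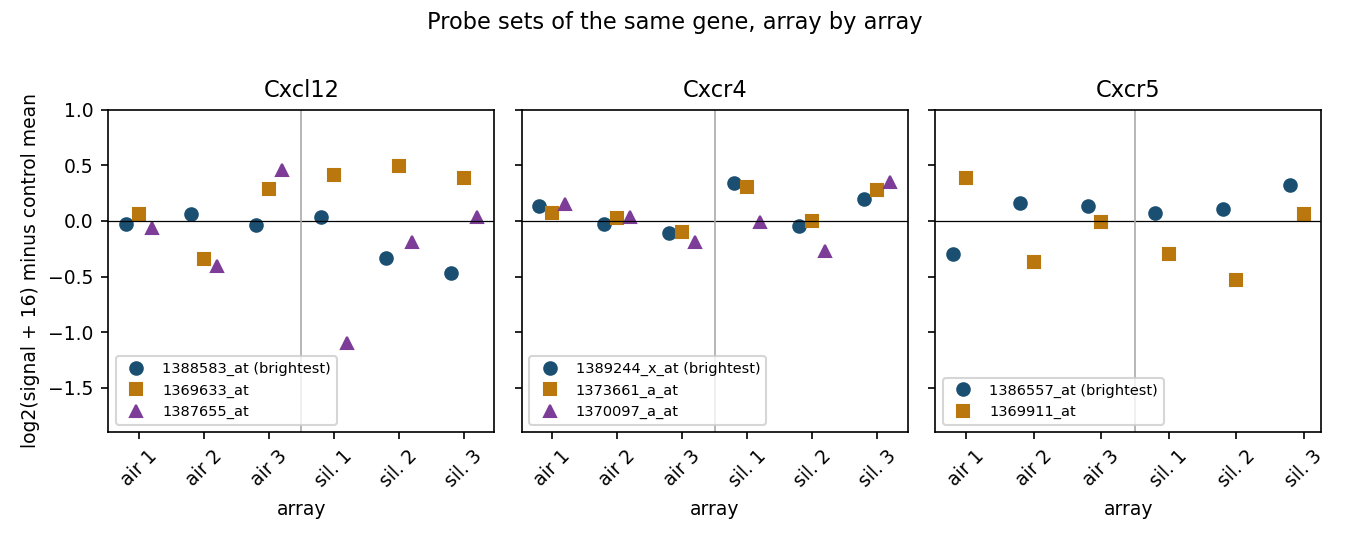
Log2(signal + 16) minus the control mean (vertical axis) for each array (horizontal axis; air 1 to 3, silica 1 to 3), for the probe sets of Cxcl12, Cxcr4 and Cxcr5, each probe set with its own symbol. The Cxcl12 symbols part in the silica arrays, the second probe set above 0 and the brightest near or below it, whereas the symbols of the 2 brighter Cxcr4 probe sets stay together in all 6 arrays.

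Cxcr4, the receptor for CXCL12, was read by 3 probe sets, of which 1389244_x_at and 1373661_a_at are annotated to the same source sequence and are not independent. The brightest, 1389244_x_at, gave 1864, 1664.7 and 1570.9 in control and 2148.6, 1641.6 and 1945.8 in silica, with overlapping groups. Its log2 fold change was 0.16 ± 0.14 (95% interval -0.17 to 0.50; limma adjusted p = 0.590). Its partner 1373661_a_at had 0.19 ± 0.12, and 1370097_a_at, from another sequence, had 0.02 ± 0.18 with signals between 602.6 and 929.3. All 3 intervals included 0, and the highest upper bound was 0.50.

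Cxcr5, the receptor for CXCL13, is carried mainly by B cells and follicular helper T cells. On 1386557_at it gave 197.8, 278.7 and 272.9 in control and 259.8, 267.1 and 312.7 in silica. The silica arrays fell among the controls except replicate 3, and the log2 fold change was 0.17 ± 0.16 (95% interval -0.23 to 0.56; limma adjusted p = 0.645). The dimmer 1369911_at ran from 41.1 to 80.6 in control and from 35.2 to 61.4 in silica, with a log2 fold change of -0.25 ± 0.24. Its partner ligand Cxcl13 and this receptor thus had different mean differences, which were not tested against each other.

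Ltb, the membrane anchor of the lymphotoxin complex, had the smallest p among the members. On 1379499_at the controls read 653.7, 662.4 and 643.9, and the silica animals read 927.4, 1177.2 and 1199. The controls were nearly identical (653 ± 9.26), and the lowest silica animal stood well above them (mean 1101 ± 151). The log2 fold change was 0.73 ± 0.13 (95% interval 0.42 to 1.04), with an unadjusted p of 0.00115 and a limma adjusted p of 0.0702. Leaving out single arrays moved it between 0.66 and 0.85.

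Lta, the secreted partner of the complex, had the lowest signals among the members. Probe set 1368722_at read 20.5, 20.5 and 29.1 in control and 39.4, 51.2 and 29.7 in silica. The silica arrays were all above the controls, but silica replicate 3 by under 1 array unit, and the log2 fold change was 0.50 ± 0.18 (95% interval 0.07 to 0.93; limma adjusted p = 0.227). With pseudocounts of 64 and 1 it was 0.25 and 0.74, so its size depends on the pseudocount. Within arrays, the log2 difference between Ltb and Lta was 4.09 ± 0.19 in control and 4.32 ± 0.35 in silica, with overlapping groups (exact two-sided permutation p = 0.6). Tnf, the gene annotated between Lta and Ltb on chromosome 20, read 87.3, 38.7 and 54.9 in control on its brightest probe set and 163.6, 266 and 180 in silica. Its log2 fold change was 1.54 ± 0.28 (limma adjusted p = 0.0767). The other Tnf probe set, 1387691_at, was dim and had 0.72 ± 0.50 with overlapping groups (limma adjusted p = 0.505).

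**Figure D3:**
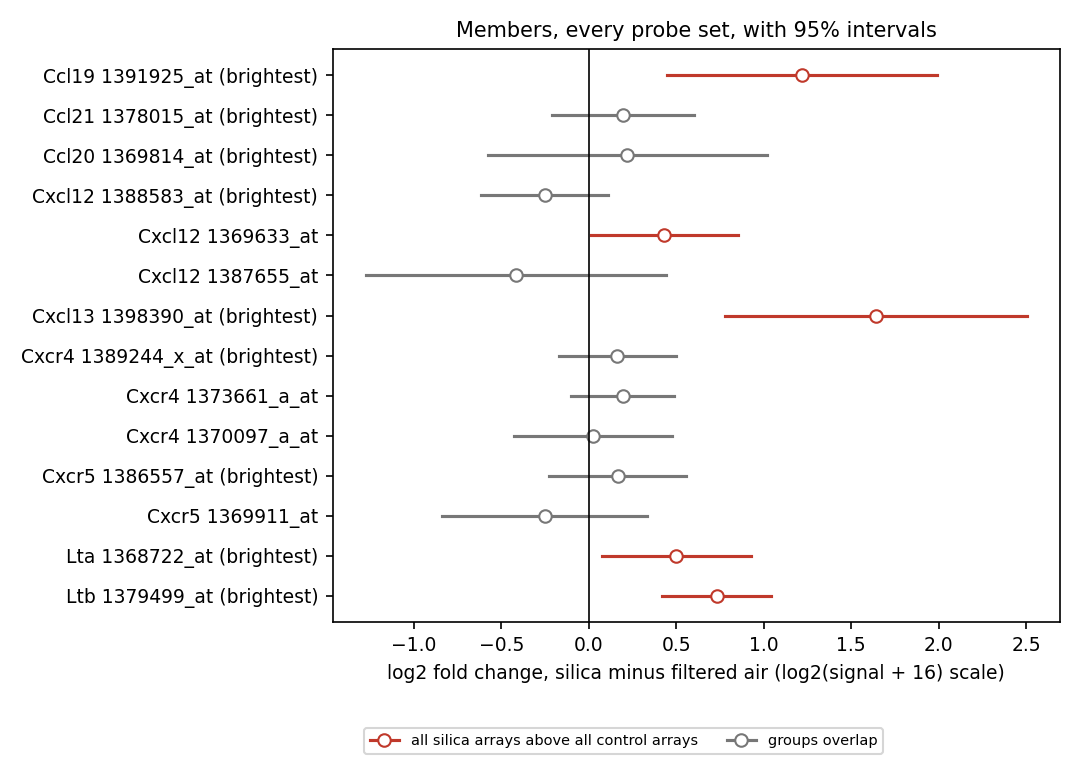
Log2 fold change, silica minus filtered air (horizontal axis), of all 14 member probe sets with 95% intervals from limma. Red marks the 5 probe sets whose silica arrays all lie above the control arrays, and grey marks the 9 with overlapping groups; open circles show that none passed the adjusted threshold.

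Whether Cxcl13, Ccl19 and Ltb passed depended on how dim probe sets and the spread were handled. With the dimmer 50% of probe sets left out, 3 of the 12 member probe sets still tested passed, each higher in silica. Of the 15521 probe sets still tested, 6.73% passed and were higher. Adjusted p-values there were 0.0188 for Cxcl13, 0.0336 for Ccl19 and 0.00877 for Ltb. Under a trend of the spread with intensity, fitted robustly, the same 3 passed (0.0108, 0.0249 and 0.00455), against 3.68% of all probe sets. With a pseudocount of 64, Cxcl13 (0.0370) and Ltb (0.0239) passed, against 2.28%. With the probe sets of each gene averaged and 14217 named genes tested, Ltb alone of 9 members passed (0.0315), against 3.14% of genes higher. Ltb has 1 probe set, and its log2 fold change was the same in that fit. Over all alternatives the limma adjusted p ran from 0.0108 to 0.379 for Cxcl13, from 0.0249 to 0.476 for Ccl19 and from 0.00455 to 0.243 for Ltb, and none of these 3 genes changed sign. The upper ends came with a covariate for RNA quality, under which their log2 fold changes were 1.76, 1.22 and 0.87.

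The pattern of Ltb over the 6 arrays was set beside that of 14216 other genes, as the root mean square difference of log2 values after subtraction of the control mean. The nearest were C16h13orf46 (0.051), Il2rg (0.057) and Haspin (0.062), but 300 genes lay within 0.2. Il2rg, the common gamma chain of the interleukin 2 receptor family carried by lymphocytes, read 1091 ± 52.2 in the control group and 1843 ± 275 in the exposed one (log2 fold change 0.74 ± 0.14, limma adjusted p = 0.0802). C16h13orf46 was dim in both groups, at 2.03 ± 0.55 and 13.4 ± 4.59. Haspin, a mitotic histone kinase, had a log2 fold change of 0.73 ± 0.11 (limma adjusted p = 0.0529).

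Receptors and signalling partners of the members were taken from a list of 35 lymphoid organisation genes, of which 24 were measured. In this list 1 gene rose and none fell, against 1.55% of all genes higher, and 10 were higher and 1 lower at an unadjusted p under 0.05, against 12.6% and 7.27% of all genes. The list median log2 fold change was 0.30, against 0.02 over all genes. Tnfrsf14, the receptor HVEM that binds LIGHT and, weakly, lymphotoxin alpha, rose from 271 ± 28.8 to 468 ± 5.96 (log2 fold change 0.76 ± 0.11, limma adjusted p = 0.0458). Leaving out any single array ended that call, with adjusted p-values from 0.117 to 0.140. Tnfrsf11a, the receptor RANK, had 46.3 ± 4.46 and 83.9 ± 10.1 (adjusted p = 0.0694), and Ccr6, the receptor for CCL20, had 138 ± 21.3 and 264 ± 40.7 (adjusted p = 0.0773).

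Named for their role after their values were seen, the lymphotoxin beta receptor Ltbr and the kinase Map3k14 behind non-canonical NF-kB had log2 fold changes of 0.14 ± 0.09 and 0.59 ± 0.29. Nfkb2 and Relb, the transcription factor pair of that pathway, had 0.35 ± 0.14 and 0.18 ± 0.12. The atypical receptors that remove member chemokines read 0.23 ± 0.18 for Ackr3, which takes up CXCL12, and -0.51 ± 0.21 for Ackr4, which takes up CCL19 and CCL21. None of these 6 genes passed, with limma adjusted p-values from 0.281 to 0.560.

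**Figure D4:**
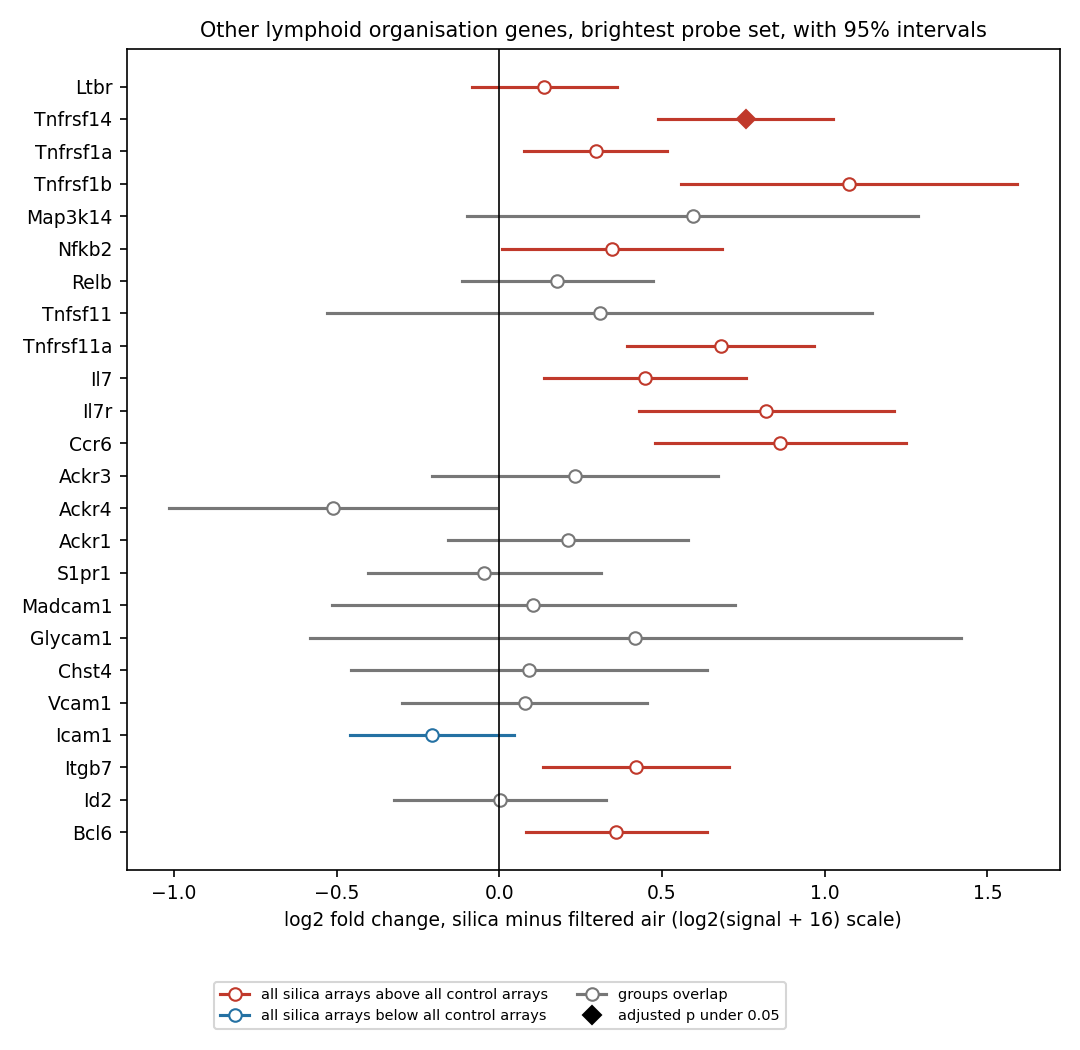
Log2 fold change, silica minus filtered air (horizontal axis), of the brightest probe set of 24 lymphoid organisation genes with 95% intervals from limma. Tnfrsf14, the filled diamond, passed the adjusted threshold; 11 genes in red had all silica arrays above the control arrays, against 18.7% of all genes, and Icam1 in blue had them below, against 12.7%.

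Markers of the cells that make or answer these factors were read beside Ltb, Cxcl13 and Ccl19. Of 11 T cell markers 7 rose on their brightest probe sets and none fell, against 1.55% of all genes higher. These were Cd2, Cd3d, Cd3e, Cd3g, Cd247, Lck and Zap70, with log2 fold changes from 0.87 to 1.45. The second probe sets of Cd247 and Zap70 had 0.62 and 0.47 without passing (limma adjusted p = 0.231 and 0.126). That of Cd3e had 1.11 and passed (limma adjusted p = 0.0475). The summed signal of all 11 markers ran from 3342 to 3892 in control and from 6727 to 8155 in silica. Without any single array 0 of the 11 passed by limma, while 10 had an unadjusted p under 0.05 in each case. None passed either with pseudocount 1, the replicate block or the RNA quality covariate (10, 10 and 11 had an unadjusted p under 0.05). With pseudocount 64 and with the intensity trend 10 passed, and with the dimmer 50% of probe sets left out 9 of 10 tested did. Cd8a and Cd8b, the chains of the cytotoxic coreceptor, had log2 fold changes of 1.03 ± 0.19 and 0.93 ± 0.17 without passing (limma adjusted p = 0.0767 and 0.0773). Cd4, named after its values were seen, had -0.01 ± 0.32 on its 1 probe set, with overlapping groups and silica signals of 95.5, 188.2 and 251.9. Cd4 was not tested against Cd8a or Cd8b. None of the 11 markers was dim in both groups. The part of T cell content in the Ltb difference was not tested.

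None of the 6 B cell markers analysed here passed by limma, and 2 were higher at an unadjusted p under 0.05, against 12.6% of all genes. These were Cd22 with a log2 fold change of 0.41 ± 0.11 and Fcrla with 0.31 ± 0.11. The other four, named after their values were seen, were Ms4a1, which encodes CD20, with 0.07 ± 0.16, Cd79b with 0.07 ± 0.15, Bank1 with -0.15 ± 0.10 and Blk with -0.32 ± 0.19. The B cell and T cell lists were not tested against each other. The summed signal of the 6 B cell markers ran from 2544 to 2661 in control and from 2704 to 2863 in silica. Of 5 genes measured from the mature dendritic cell list, Cd83 and Itgax rose (log2 fold changes 0.84 and 0.83), against 1.55% of all genes. Which cells of the lung carried these 2 transcripts was not tested. Flt3 and Fscn1 had 0.36 and 0.24 without passing. The dimmer Fscn1 probe sets 1394315_at and 1381678_at had 0.45 and 0.59, also without passing (limma adjusted p = 0.160 and 0.096). The sum over the 5 markers, led by Lamp3, which alveolar type 2 cells also express, ran from 14433 to 15101 in control and from 17291 to 17804 in silica. Of 5 macrophage markers measured 2 rose, against the same 1.55%. Itgam went from 82.5 ± 7.31 to 271 ± 53.2 and Cd68 from 2764 ± 125 to 5138 ± 630.1. Adgre1 had a log2 fold change of 0.62 ± 0.11 without passing (limma adjusted p = 0.0733). Csf1r had 0.10 ± 0.13 and Mrc1, named after its values were seen, 0.03 ± 0.12, both with overlapping groups. Sums over all 5 macrophage markers ran from 9121 to 9599 in control and from 11703 to 12681 in silica. Without any single array 0 of these dendritic cell and macrophage markers passed, nor with pseudocount 1, the replicate block or the RNA quality covariate (limma; 2 or 3 of each list had an unadjusted p under 0.05 in these fits). With array medians centred 1 of the dendritic cell markers passed. Their part in the Cxcl13 and Ccl19 differences was not tested.

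Stromal markers of organised lymphoid tissue did not pass by limma. None of 4 markers of follicular dendritic cells and none of 3 of high endothelial venules passed or had an unadjusted p under 0.05. Cr2, a complement receptor of B cells and follicular dendritic cells, had 0.52 ± 0.28 on the brightest of its 5 probe sets, and Fcer2 had 0.20 ± 0.18. The other Cr2 probe sets ran from -0.20 to 0.40, and none passed. Glycam1 and Madcam1, a mucin scaffold and an adhesion molecule of high endothelial venules, had 0.42 ± 0.41 and 0.10 ± 0.25. Sums ran from 9469 to 11139 in control and from 8848 to 11096 in silica for the follicular list, nearly all of it from Clu, which other lung cells make, and from 199 to 403 and from 291 to 393 for the venule list. Among 4 lymphatic endothelial markers none passed. Pdpn, which alveolar type 1 cells also make, was lower at an unadjusted p under 0.05 (-0.29 ± 0.10), against 7.27% of all genes. None of 8 lung epithelial markers passed. Aqp5 (-0.34 ± 0.11) and Ager (-0.24 ± 0.09) were lower at an unadjusted p under 0.05, against the same 7.27%. Lymphatic sums, mostly Pdpn, ran from 16445 to 17011 in control and from 13524 to 14577 in silica. Prox1, the defining transcription factor of lymphatic endothelium, had -0.16 ± 0.13.

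**Figure D5:**
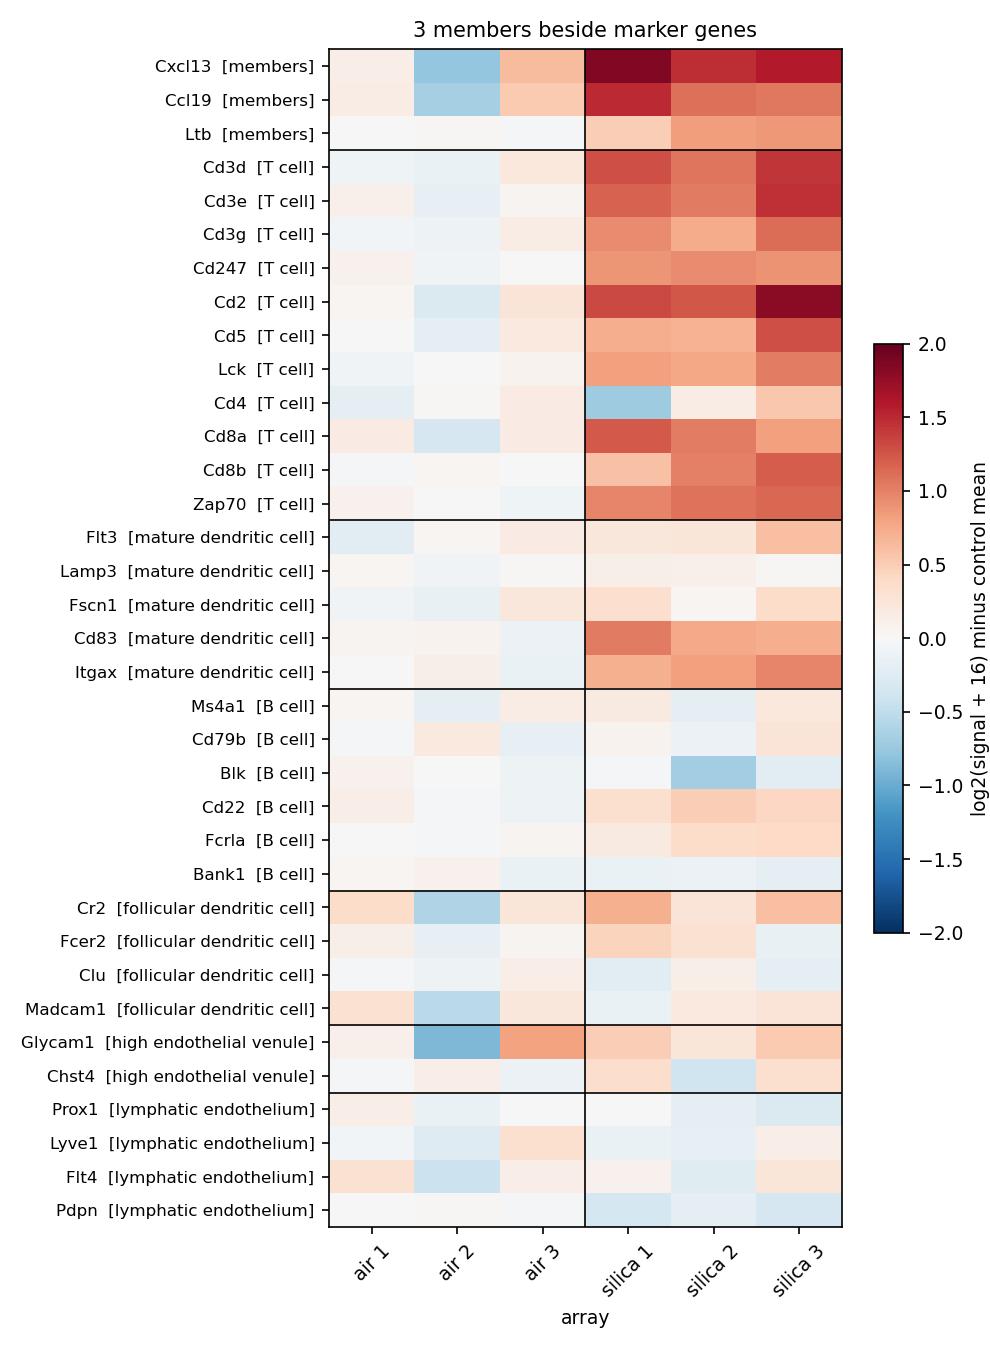
Log2(signal + 16) minus the control mean (colour scale, red above and blue below) in each of 6 arrays (columns) for Cxcl13, Ccl19 and Ltb and for marker genes (rows) of T cells, mature dendritic cells, B cells, follicular dendritic cells, high endothelial venules and lymphatic endothelium. T cell rows other than Cd4 are red in all silica columns, and B cell rows are pale. Control replicate 2 is blue for Cxcl13, Ccl19, Cr2, Madcam1 and Glycam1, but not for Chst4.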

How the data were processed

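Lung RNA of 6 animals was hybridised as biotin-labelled cRNA to 1-colour short-oligonucleotide arrays, per the labels' protocols. The authors deposited 1 linear signal intensity per probe set and array; the sources used here do not give the summarising software. The 2% trimmed mean of every array lay between 500.14 and 500.15, which shows a scaling by 1 factor per array before deposit. Of 31099 probe sets 57 were array controls and were left out. Gene names came from the platform annotation, updated by gene identifier through RefSeq (20758 of 20826 probe sets with 1 gene matched); 436 probe sets with several genes and 9780 not listed gave no name. A gene's leading probe set is its brightest over all arrays.

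Samples were grouped by title, with 3 arrays per group. Values were analysed as log2(signal + 16) with limma 3.58.1 in R 4.3.3 (lmFit, eBayes; model with group only, 4 residual degrees of freedom, 2.18 prior ones), with Benjamini-Hochberg adjustment over 31042 probe sets. The fit was tested on simulated arrays. Members, gene lists and tests were chosen with earlier results of these data known. Named genes were all members with every probe set, and from each list the genes that passed and up to 2 others with the smallest p; genes alike in pattern were the 3 nearest to each member that passed or, as none did, to the member with the smallest p. Tnf, Icam1, Lamp3, Clu and the genes said to be so were named outside this rule, after their values were seen. Dim means a mean signal under 32 in both groups. Same-numbered control and silica arrays had deviations from the group means that correlated at 0.09, 0.04 and 0.09. Differently numbered ones correlated at -0.08 to -0.002, so each same-numbered pair had the higher value. All these values are small, and the main model did not take the numbers to pair animals. Whether they do was not tested, and a replicate block was fitted as an alternative. Alternatives covered normalization, dim probe sets, moderation, pseudocount, array weights, RNA quality, a replicate block, single arrays left out, thresholds and averaging of probe sets.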

Additional observations from a re-analysis of the deposited data

How the results depend on the processing

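Of 217 values from refitting the member probe sets under alternatives, 203 kept their direction and their side of the threshold, 9 kept the direction and passed, and 5 changed sign. The count of member probe sets passing was 3 with the dimmer 50% left out, 3 with an intensity trend and robust spread, 2 with pseudocount 64 and 0 elsewhere, single arrays left out included (where 3 to 5 had an unadjusted p under 0.05). Over all probe sets 335 passed (290 higher and 45 lower), against 1675 (1044 and 631), 1862 (1141 and 721) and 919 (707 and 212) under those 3 settings. There were 43 with pseudocount 1, 6 at an adjusted p of 0.01, 183 with at least 2-fold change, 0 with the RNA quality covariate (3184 at an unadjusted p under 0.05) and between 0 and 12 with single arrays left out (4024 to 5427 unadjusted). The count of lymphoid organisation genes moved from 1 of 24 to 5 of 17 still tested with the dimmer 50% left out. Of the 15521 probe sets still tested there, 6.73% were higher. The list count was 6 with the intensity trend (against 3.68% of all probe sets), 4 with pseudocount 64 (2.28%) and 4 with probe sets of a gene averaged (3.14% of genes). The count was 0 with pseudocount 1, the RNA quality covariate, an adjusted p of 0.01, at least 2-fold change or any array left out. Between 8 and 12 had an unadjusted p under 0.05 in these limma fits. With the replicate block 1 probe set passed in all, 0 members and 0 lymphoid organisation genes (limma; 5190, 3 and 12 at an unadjusted p under 0.05). That block removes residual degrees of freedom. With the probe sets of a gene averaged, which left 14217 tests, Ltb, with its 1 probe set unchanged, had an adjusted p of 0.0315.

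The dimmest Cxcl12 probe set turned from -0.42 to 0.22 with the RNA quality covariate, and Cxcr5 had -0.044 as the mean of its probe sets. With single arrays left out, Ccl20 ran from -0.17 to 0.45 and the dimmest Cxcr4 probe set from -0.14 to 0.17. The cause was not tested. Quantile normalization and median centring shifted the median of all probe sets by -0.01 on the log2 scale and turned no member's sign. Lta was the dimmest member, at percentile 23.7 of mean signal, where the pseudocount sets the size of a difference.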

Other observations

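Control replicate 2 stood low for several of these genes at once, which was seen after the values were in hand and carries no test. In 6 of the 14 member probe sets (Cxcl13, Ccl19, Ccl21, Ccl20 and the second and dimmest Cxcl12 probe sets) control replicate 2 was the lowest and control replicate 3 the highest of the controls, as in 17.5% of all 31042 probe sets. All 6 belong to chemokine ligands. The brightest Cxcl12 probe set, also of a ligand, ran the other way, with 1999.9, 2125.5 and 1986.5 in control replicates 1, 2 and 3. The receptors and lymphotoxins did not show the arrangement of the 6. Glycam1, a product of high endothelial venules, had it too, with 161.5, 73 and 272.3 in control replicates 1, 2 and 3, against 216.4, 179.3 and 223.4 in silica. In Madcam1 and Cr2 control replicate 2 was again the lowest control, at 19.5 against 48.1 and 44.5, and at 75.3 against 163.9 and 148. Chst4, the other venule marker measured, named after its values were seen, had the opposite order, with 94.2, 106.7 and 86.3. The summed B cell markers, at 2660.9, 2646.1 and 2544.2 in control replicates 1, 2 and 3, did not have the arrangement either. Among the single B cell markers Ms4a1 (267.9, 226.4 and 289.9) and Fcrla (814.8, 797.5 and 859.6) had it, while Cd79b, Cd22, Bank1 and Blk did not. Lyve1 of the lymphatic list (2823, 2456.5 and 3659.9) and Vcam1 (1666.4, 1382.8 and 1990.2), named after their values were seen, had it as well. The summed T cell markers were 3588.5, 3341.5 and 3892 in the same controls, whereas Ltb lay between 643.9 and 662.4 in them. Whether the control lungs differed in their content of lymphoid tissue was not tested.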
